A study of Mus musculus with 16 samples.

Results

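The comparison described here asked whether the transcripts of mouse embryonic stem cells (mESCs) respond in another way to 2i when the cells keep making Dnmt3b and Dnmt3l. For each gene it is the difference of 2 responses, the 2i response of the line 3B3l minus the 2i response of the wild-type line J1. It rested on 11 of the 16 one-colour expression arrays of the series: 4 of J1 in serum (J1-serum), 3 of J1 in 2i (J1-2i), 2 of 3B3l in serum (3B3l-serum) and 2 of 3B3l in 2i (3B3l-2i). The other 5 arrays were of TKO cells, 2 in serum and 3 in 2i, which entered the fit for the estimate of the spread and are cited for their own response.

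J1 is a male wild-type line. The 3B3l line, labelled 3B3-3l, carries knockouts of Dnmt3a and Dnmt3b and constitutively expresses exogenous Dnmt3b and Dnmt3l, so that both J1 and 3B3l keep Dnmt1. TKO cells lack functional Dnmt1, Dnmt3a and Dnmt3b. Each line is 1 line, so a difference between 3B3l and J1 cannot be told apart from any other way in which the lines differ. Serum cultures held 15% fetal calf serum and LIF at 500 U/ml. The 2i cultures were kept for 2 weeks in serum-free N2B27 with LIF at 1000 U/ml, the MEK inhibitor PD0325901 at 1 µM and the GSK3β inhibitor CHIR99021 at 3 µM. J1-serum cells grew on inactivated SNLP feeder cells and all other cultures grew without feeders on gelatin, so that medium and feeders cannot be told apart in the J1 response. The labels do not say whether replicates were separate cultures, so p-values measure only the spread between these samples, which may be technical. In bulk RNA, fewer cells of a kind and less RNA per cell cannot be told apart.

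Cultured mESCs in serum are a mixture of cells near the naive state and cells that have begun to move away from it, together with rare cells that switch on genes of other early lineages. Inhibition of MEK removes the ERK signal that drives exit from the naive state, and inhibition of GSK3 stabilises β-catenin and relieves repression by Tcf7l1. In wild-type cells 2i also lowers the de novo methyltransferase system (Dnmt3a, Dnmt3b and its cofactor Dnmt3l), and DNA methylation falls, which constitutive Dnmt3b and Dnmt3l counteract. DNA methylation acts mainly on CpG sites and is known to silence germline genes, imprinted alleles and retroelements.

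A level is the log2 processed signal of a probe after the 75th percentile of its array is taken off, so that 0 marks that percentile. A response is the level in 2i minus the level in serum, and the difference is the 3B3l response minus the J1 response, also in log2. A call needed a limma p-value, adjusted over all probes tested (Benjamini-Hochberg), no higher than 0.05 and a size of 2-fold or more, and 1 called probe sufficed for its gene. "Rose" and "fell" are used of called responses, and "higher" or "lower" of the 3B3l response beside that of J1. Every adjusted p below is limma's. All 10 mESC markers fixed for the purpose were well above background on every array of every group. Arrays of one group correlated at 0.976 to 0.990 over tested probes.

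The difference was called for 2760 of 13878 genes tested, which is 19.9%. The 3B3l response was higher for 1399 genes (10.1%) and lower for 1372 (9.89%), with 11 genes called both ways by different probes. The median difference over all genes was -0.05, with a median standard error of 0.25 per probe, and called genes had a median of 1.68 when higher and -1.46 when lower. For 506 genes the difference was at or above 2 log2 units and for 308 at or below -2. The J1 response itself was called for 25.3% of genes (11.5% rose and 13.8% fell), the 3B3l response for 14.9% (6.27% and 8.65%) and the TKO response for 17.7% (7.52% and 10.2%). For 1390 of the 1399 genes and 1367 of the 1372 each of the 4 pairs of 3B3l arrays lay beyond each of the 12 J1 pairs. Among the 9848 genes measured without saturation on all 11 arrays this held for 46.8%, whether called or not, 20.0% higher and 27.3% lower.

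The called genes fell into 6 response classes in each direction, the fullest being a response called in J1 and not in 3B3l. The 2 responses were not called with equal power. The median standard error per probe was 0.154 for the J1 response and 0.202 for the 3B3l response. Both responses also enter the difference, so the classes are not independent of its call. A response called in J1 alone is therefore no measure of how much weaker the 3B3l response was. Of the genes with a higher 3B3l response, 719 (51.4%) fell in J1 and were not called in 3B3l, 171 (12.2%) fell in both lines, and 70 (5.004%) fell in J1 and rose in 3B3l. A further 194 (13.9%) rose in 3B3l alone, 25 (1.79%) rose in both and 220 (15.7%) had no called response in either line. Of the genes with a lower 3B3l response, 596 (43.4%) rose in J1 and were not called in 3B3l, 260 (18.95%) fell in 3B3l alone, 91 (6.63%) fell in both, 58 (4.23%) rose in both, 41 (2.99%) rose in J1 and fell in 3B3l, and 326 (23.8%) had no called response in either.

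A difference of responses can come from the serum cells, from the 2i cells or from both. Among genes with a higher 3B3l response, the level of 3B3l differed from that of J1 by a called amount in serum only for 619, in 2i only for 367, in both media for 172 and in neither for 241. Among genes with a lower one the numbers were 615, 302, 119 and 336. Over all genes tested the levels of the lines differed by a called amount for 22.6% in serum (11.5% higher and 11.2% lower in 3B3l) and for 16.9% in 2i (9.14% and 7.79%). Serum levels thus differed between the lines without a called difference in 2i more often than the reverse. The lower end of the scale also limits many of these values: the called probe was well above background on all 11 arrays for 557 of the 1399 genes and 787 of the 1372.

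**Figure D1:**
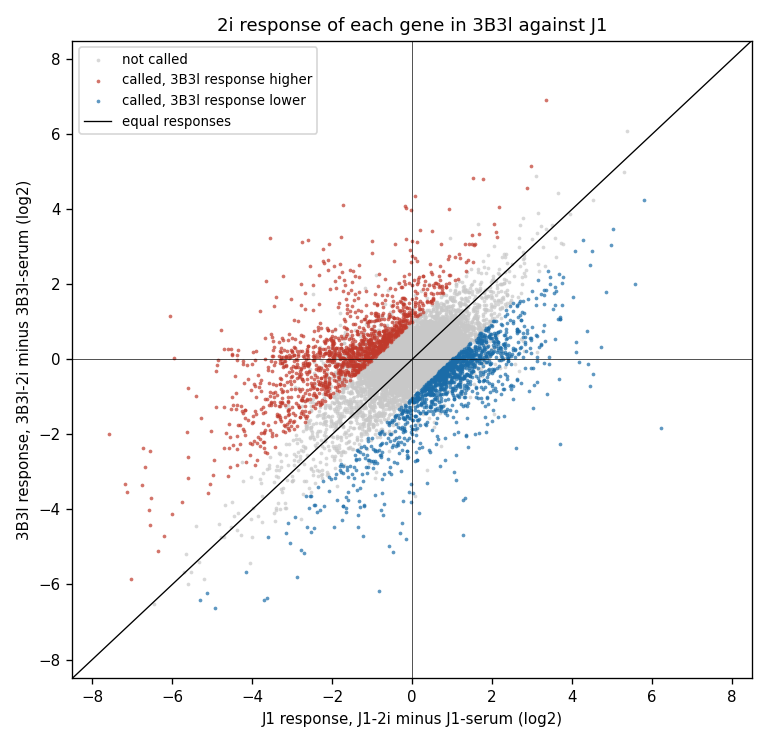
Each point is 1 of 13878 genes, shown by 1 probe, with its J1 response (log2, horizontal axis) against its 3B3l response (log2, vertical axis); the line marks equal responses. Genes called higher in 3B3l (red) lie above the line, mostly at negative J1 responses, and genes called lower (blue) lie below it, mostly at positive J1 responses.

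Zscan4 genes and Stra8 fell in J1 and rose in 3B3l. Zscan4 genes encode zinc-finger proteins that mark a rare, transient state of mESCs resembling the two-cell embryo, and Stra8 is a germline gene needed for entry into meiosis. The sequences upstream of 4 of these genes are shown with their CpG sites, the substrate of the methyltransferases in question. The sequences are the 250 bases before the annotated start, from RefSeq on build GRCm38.p6, with each CpG in capitals.
Zscan4c, chr7:11005495-11005744, + strand: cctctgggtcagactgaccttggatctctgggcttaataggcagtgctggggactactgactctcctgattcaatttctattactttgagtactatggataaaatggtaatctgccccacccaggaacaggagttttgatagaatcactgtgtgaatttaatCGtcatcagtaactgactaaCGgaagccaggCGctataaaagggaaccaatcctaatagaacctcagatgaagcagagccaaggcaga
Zscan4f, chr7:11397665-11397914, + strand: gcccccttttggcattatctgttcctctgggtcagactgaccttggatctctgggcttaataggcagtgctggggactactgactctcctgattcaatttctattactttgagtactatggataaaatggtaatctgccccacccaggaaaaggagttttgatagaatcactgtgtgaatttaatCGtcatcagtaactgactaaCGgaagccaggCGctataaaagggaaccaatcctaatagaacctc
Usp17la, chr7:104856766-104857015, + strand: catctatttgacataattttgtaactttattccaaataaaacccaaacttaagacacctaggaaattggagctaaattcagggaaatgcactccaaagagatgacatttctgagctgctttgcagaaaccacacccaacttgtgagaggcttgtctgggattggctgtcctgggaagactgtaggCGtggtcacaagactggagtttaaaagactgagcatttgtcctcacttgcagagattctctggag
Stra8, chr6:34920698-34920947, + strand: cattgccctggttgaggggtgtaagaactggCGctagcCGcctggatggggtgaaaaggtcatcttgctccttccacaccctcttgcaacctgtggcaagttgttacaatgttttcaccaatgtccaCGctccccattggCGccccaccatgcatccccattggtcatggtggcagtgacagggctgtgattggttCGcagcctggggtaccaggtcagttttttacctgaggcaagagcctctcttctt
The Zscan4c and Zscan4f windows share an identical run of 127 bases and hold 3 CpG sites each, that of Usp17la holds 1 and that of Stra8 holds 5. Windows of this length with 5 or fewer CpG sites made up 19.6% of the 11066 promoters matched to genes tested and 49.5% of all 27025 promoters in the table. With 50 bases after the start added, promoters of the class that fell in J1 and rose in 3B3l (49 of 70 genes matched) had a median of 6 CpG sites, against 19 for all genes tested. For all genes with a higher 3B3l response the median was 17 and for all with a lower one 18. In that class 49.0% of promoters had 5 or fewer CpG sites, against 14.9% of all tested and 43.6% of all 27025 promoters, whose median was 7. Other small classes were also low, with medians of 8 for genes that were higher and rose in both lines, 10.5 for those that rose in J1 and fell in 3B3l, and 11.5 for those that were lower and rose in both. Several genes of the class are near-identical copies, so their promoters are not independent, and a CpG count is no measure of methylation.

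Of 12 two-cell-like genes tested, 10 were called higher and none lower, with a median difference of 3.56 beside -0.05 for all genes. In J1, 9 fell, and in 3B3l, 8 rose, where 13.8% of all genes fell in J1 and 6.27% rose in 3B3l. Responses within a list are counted by 1 probe per gene, and the shares of all genes by any probe. The members not called were Zfp352, with a difference of -0.16 ± 1.13 (SE), and Eif1a, with 0.30 ± 0.18. Zscan4 copies are alike enough that probes may bind transcripts of more than 1 of them, so the copies are not independent measurements.

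Zscan4a stood at 1.71, 1.82, 1.98 and 1.79 on the 4 J1-serum arrays and at -0.44, -0.38 and -0.42 in J1-2i. In 3B3l it stood at 0.22 and 0.07 in serum and at 2.75 and 2.77 in 2i. In J1 all serum arrays lay above all 2i arrays, and in 3B3l the order was reversed, with no overlap in either line. The responses were -2.24 ± 0.09 (SE) in J1 and 2.62 ± 0.12 in 3B3l, a difference of 4.85 ± 0.15 or 28.9-fold (adjusted p = 3e-09). Level differences between the lines were called in both media with opposite signs, -1.68 in serum and 3.17 in 2i.

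Zscan4c and Zscan4f, whose upstream sequences are given above, followed the same order. Zscan4c stood at 1.53, 2.07, 2.31 and 2.02 in J1-serum, at -0.27, 0.02 and -0.10 in J1-2i, at -0.45 and -0.87 in 3B3l-serum and at 1.75 and 2.23 in 3B3l-2i. Its difference was 4.74 ± 0.32 (SE), adjusted p = 4.2e-07. In both lines the serum and 2i arrays did not overlap. Zscan4f stood at 3.95, 3.93, 4.25 and 4.04 in J1-serum, at 1.93, 1.82 and 2.04 in J1-2i, at 1.45 and 1.71 in 3B3l-serum and at 3.80 and 4.15 in 3B3l-2i. Its difference was 4.51 ± 0.22 (adjusted p = 3.7e-08), so that the 3B3l-2i arrays overlapped those of J1-serum. Zscan4b, another copy, differed by 4.79 ± 0.17.

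Beyond Zscan4, the predicted gene Gm8300 of the same list differed by 5.17 ± 0.24, with levels of 0.58 to 1.05 in J1-serum, -1.75 to -1.22 in J1-2i, -1.37 and -1.43 in 3B3l-serum and 1.55 and 1.54 in 3B3l-2i. The predicted genes Gm2022, Gm21319 and Gm2016, in no list, differed by 4.44, 4.33 and 4.03. Usp17la, a deubiquitinase gene of the Usp17 family, was not well above background in J1-2i or 3B3l-serum by the probe that was called, which bounds its difference at 8.96-fold or more, while its other probe, not well above background in 3B3l, gave -0.84 ± 0.24 and was not called. The 10 largest differences above 0, among genes well above background on all 11 arrays, were Stra8, Gm8300, 4 Zscan4 copies, Gm2022, Gm21319, Rgs11 and Gm2016. Rgs11, a regulator of G-protein signalling, varied from 1.01 to 4.71 in J1-serum with 2 of 11 values left out as outlier spots, and its call (4.22 ± 1.28, adjusted p = 0.033) was lost in 11 of 23 alternative settings.

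Stra8 led these genes. It stood at 1.13, 1.25, 0.85 and 1.09 in J1-serum, at -0.81, -0.63 and -0.53 in J1-2i, at -0.45 and -0.61 in 3B3l-serum and at 3.35 and 3.82 in 3B3l-2i. Both 3B3l-2i arrays lay above every other array of the series. The J1 response was -1.73 ± 0.16 and the 3B3l response 4.11 ± 0.21, a 57.5-fold difference (5.84 ± 0.27, adjusted p = 2.9e-08).

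The TKO response gives a comparison with another feeder-free line. Two-cell-like genes fell in TKO too: 9 of 12 were called lower in TKO-2i, where 10.2% of all genes fell, and the single probes of Zscan4b and Zscan4f were not well above background on any TKO-2i array. Zscan4a and Zscan4c each had a probe that was well above it on all 3 TKO-2i arrays, with mean levels of -0.33 and -1.69 after 1.73 and 1.47 in TKO-serum, while their other probes were not. Stra8 fell by 1.70 in TKO, from 1.30 and 1.79 to 0.07, -0.13 and -0.42, and its 3B3l response exceeded that of TKO by 5.82 ± 0.29 (adjusted p = 4.4e-08). The difference between the 3B3l and TKO responses was called for 11.2% of genes, 5.56% higher and 5.61% lower.

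**Figure D2:**
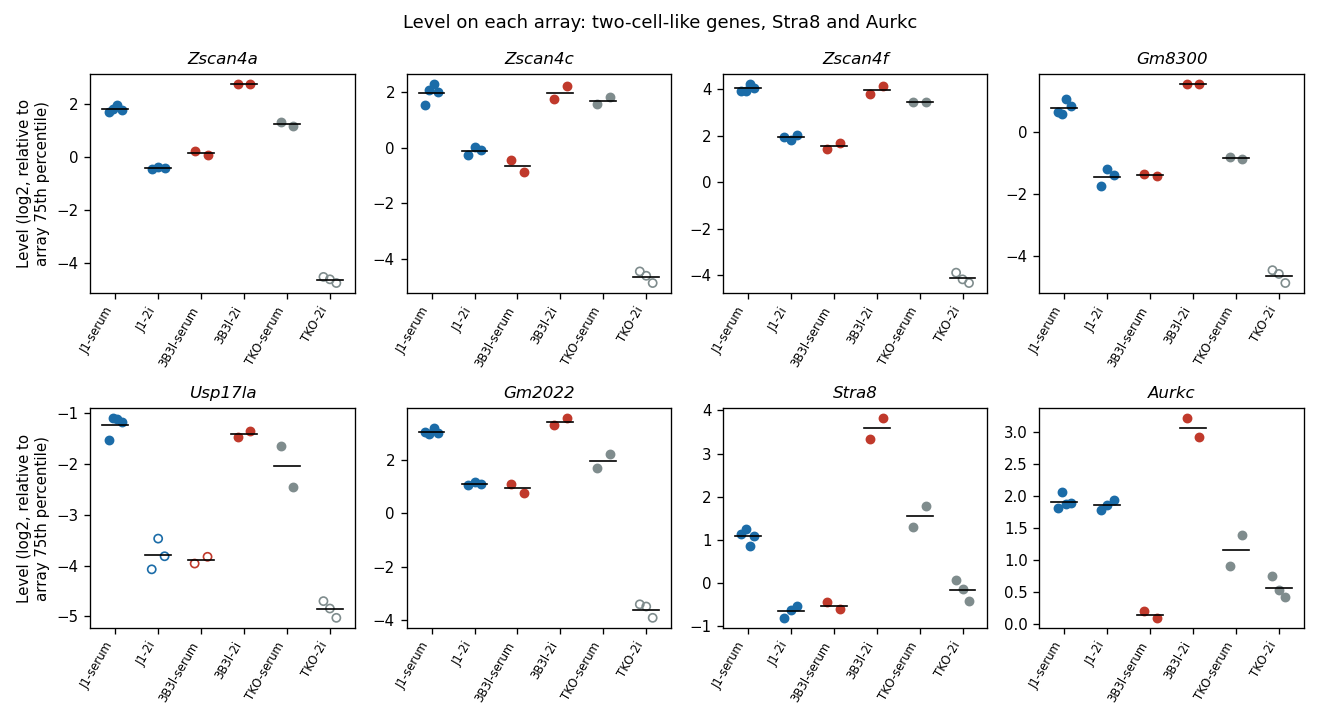
Level on each array (log2, relative to the array's 75th percentile; each panel has its own vertical range) of 6 two-cell-like or predicted genes, Stra8 and Aurkc by group; points are arrays, open where not well above background, and bars are group means. For Zscan4a the J1-2i arrays lie at -0.44 to -0.38 and the 3B3l-2i arrays at 2.75 and 2.77.

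Genes that rose in 3B3l alone included Aurkc, a meiotic Aurora kinase. Aurkc stood at 1.81, 2.06, 1.87 and 1.88 in J1-serum and 1.77, 1.86 and 1.94 in J1-2i, but at 0.20 and 0.10 in 3B3l-serum and 3.21 and 2.92 in 3B3l-2i. The J1 groups overlapped and the 3B3l groups lay on either side of them, a difference of 2.96 ± 0.21 (adjusted p = 8.1e-07). Tesc, which encodes the calcium-binding protein tescalcin, and Tmem181a, a membrane protein gene, differed by 3.10 and 3.09.

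Germline genes went both ways: 9 of 24 tested were called higher and 3 lower, with a median difference of 0.30, beside 10.1% and 9.89% of all genes. With signal well above background required on all 11 arrays the counts were 5 and 1. Mael, a component of the piRNA pathway, fell by 3.15 in J1 and by 0.43, below the threshold, in 3B3l. It stood at 2.96 to 3.24 in J1-serum and -0.11 to 0.13 in J1-2i, and at 2.00 and 2.40 in 3B3l-serum and 1.84 and 1.71 in 3B3l-2i, a difference of 2.72 ± 0.22 (adjusted p = 2.1e-06). Meioc, a meiotic regulator, was called by both of its probes. By the brighter one, well above background on all 11 arrays, it fell by 3.45 in J1 and responded by -0.26 in 3B3l, a difference of 3.195 ± 0.23. Another 2 germline genes rose in both lines with no called difference: Dazl, an RNA-binding protein of germ cells, responded by 2.19 in J1 and 2.00 in 3B3l (difference -0.19 ± 0.30, adjusted p = 0.7), and the co-chaperone Fkbp6 by 2.43 and 2.37 (-0.06 ± 0.22, adjusted p = 0.87; 0.36 ± 0.25 by its other probe). Hormad1, a meiotic chromosome axis gene, was among the 3 called lower, at -1.64 ± 0.18. Asz1 was another, but was not well above background in any J1 or 3B3l group.

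The DNA methylation genes showed the construction of the line. Dnmt3a, a de novo methyltransferase, stood at 0.52 to 0.81 in J1-serum and -0.95 to -0.61 in J1-2i and was not well above background on any 3B3l or TKO array. Its called difference of 1.49 ± 0.22 is therefore the J1 fall of 1.43 set against a line in which it was not well above background. Dnmt3b by its brightest probe stood at 2.88 to 3.08 in J1-serum, 0.56 to 0.68 in J1-2i, 5.62 and 5.44 in 3B3l-serum and 5.64 and 6.01 in 3B3l-2i. It fell by 2.34 in J1 and not in 3B3l (0.29 ± 0.14), a 6.19-fold difference (adjusted p = 3.8e-07).

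Both other Dnmt3b probes were not called, and they behaved in another way. One fell by 2.19 in J1 and by 1.502 in 3B3l, from 0.71 and 0.86 to -0.89 and -0.55, a difference of 0.69 ± 0.21 (adjusted p = 0.025). The other fell by 2.26 in J1 and was not well above background in 3B3l-2i. The probes thus divided into 1 that was brighter in 3B3l than in J1 and 2 that were dimmer, and which transcript each probe reads was not tested.

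Dnmt3l, the catalytically inactive cofactor, fell in both lines. It stood at 4.43 to 4.98 in J1-serum and 0.69 to 0.80 in J1-2i, a fall of 3.90, and at 5.89 and 5.80 in 3B3l-serum and 4.29 and 4.48 in 3B3l-2i, a fall of 1.46. Its spots were saturated on both 3B3l-serum arrays, so the 3B3l fall is at least this size and the difference of 2.43 ± 0.21 (adjusted p = 3.7e-06) at most that. Dnmt1, the maintenance methyltransferase, differed by -0.86 ± 0.17 and its partner Uhrf1 by -0.54 ± 0.17, both under the 2-fold limit. Prdm14, a naive factor that represses Dnmt3b, rose in both lines, by 2.79 in J1 and 1.25 in 3B3l (difference -1.54 ± 0.16, adjusted p = 1.7e-05). Prdm14 stood at -0.00 to 0.17 in J1-serum and 1.16 and 1.43 in 3B3l-serum, but at 2.77 to 2.95 and 2.48 and 2.59 in 2i, so that the lines differed more in serum than in 2i. Its mean levels in TKO were 1.09 in serum and 2.66 in 2i. Of the 15 genes of the list, Uhrf2 and the glycosylase gene Tdg were also called higher and the dioxygenase genes Tet1 and Tet2 lower, each by 1 of its probes. By the brightest probe Uhrf2 (0.82), Tdg (0.45) and Tet2 (-0.48) were not called.

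**Figure D3:**
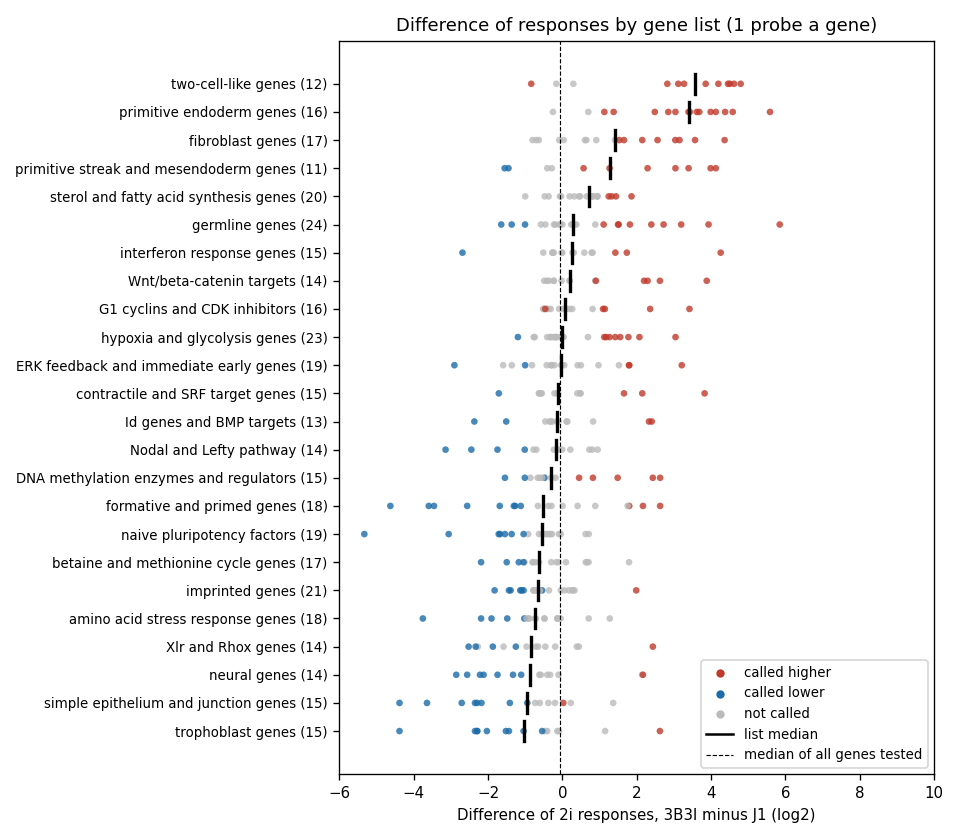
Difference of responses, 3B3l minus J1 (log2, horizontal axis), of each gene tested in 24 gene lists (1 row a list, the number tested in brackets), 1 point a gene by its probe with the highest mean level. Points are red where any probe of the gene was called higher, blue where called lower and grey where not called; bars are list medians, from 3.56 for two-cell-like genes to -1.04 for trophoblast genes, and the dashed line is the median of all genes tested (-0.05).

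Of 19 naive pluripotency factors tested, 7 were called lower, beside 9.89% of all genes, and none higher (median -0.54), among them Dppa3, which fell in 3B3l, and 6 that rose in J1. In J1, 11 rose, and in 3B3l, 6, where 11.5% and 6.27% of all genes did. The core of the network did not differ by a called amount: Nanog, the homeodomain factor of the naive state, differed by -0.28 ± 0.25 by a probe saturated on some arrays and by -0.64 ± 0.24 by its other probe, Klf4 by -0.04 ± 0.19, with responses of 1.15 and 1.11, and Esrrb by -0.42 ± 0.14. Nr0b1 (Dax1), a nuclear receptor of the network, rose in J1 from between 2.32 and 2.58 to between 3.99 and 4.11. In 3B3l it already stood at 4.41 and 4.56 in serum and stayed at 4.17 and 4.51 in 2i, a difference of -1.71 ± 0.16 (adjusted p = 6.7e-06). Klf5 followed the same order (-1.68 ± 0.33). In TKO, too, neither gene moved much. Mean levels in TKO-serum and TKO-2i were 4.30 and 4.185 for Nr0b1 and 3.97 and 4.02 for Klf5. By mean level J1-serum, the only group with feeders, was the lowest of all groups for both genes. The part of the feeders in this was not tested.

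Spic, a transcription factor of the ETS family, reached a lower level in 2i in 3B3l. It rose by 4.85 in J1, from between -1.80 and -1.35 to between 3.28 and 3.38, and by 1.79 in 3B3l, from -1.13 and -0.61 to 0.90 and 0.94. The difference was -3.06 ± 0.24 (adjusted p = 1.6e-06). The groups did not overlap in either line.

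Dppa3 (Stella), which encodes a maternal factor that guards methylation in the zygote and binds Uhrf1, was lost from the measurable range in 3B3l-2i. It stood at 2.16, 2.30, 2.33 and 2.29 in J1-serum, 1.42, 1.55 and 1.33 in J1-2i and 1.72 and 2.43 in 3B3l-serum, and was not well above background on either 3B3l-2i array. The level in 3B3l-serum was at least 21.1-fold that in 3B3l-2i, while the J1 response was -0.84 and the TKO response -0.50, both under the 2-fold limit. The difference to J1 was at least 11.8-fold (adjusted p = 3.2e-08), and 3B3l-2i was the only one of the 6 groups with Dppa3 below the measurable range.

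The formative and primed genes, which mark cells on the way out of the naive state, were called lower for 8 of 18 and higher for 3 (median -0.52), beside 9.89% and 10.1% of all genes. Otx2, a homeodomain factor of that transition, stood at 3.67 to 3.84 in J1-serum, 3.63 to 3.69 in J1-2i, 3.44 and 3.47 in 3B3l-serum and -0.01 and -0.16 in 3B3l-2i. It did not fall in J1 (-0.09 ± 0.10) and fell by 3.54 in 3B3l, a 10.9-fold difference (-3.45 ± 0.17, adjusted p = 4.5e-08). In TKO it fell by 2.04, less than in 3B3l by 1.49 ± 0.18.

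For other genes of that list the difference lay in the serum cells. Fgf5, a growth factor of the primed epiblast, was well above background in 3B3l-serum (0.26 and 0.68) and in no J1 group, at least 14.4-fold above J1-serum. Foxd3, a repressor needed for pluripotent cells, was not well above background in J1-serum and stood at -0.27 to -0.15 in J1-2i, at 1.33 and 1.76 in 3B3l-serum and at 0.27 and 0.70 in 3B3l-2i. Its difference was at least 11.4-fold lower. Mean levels of Foxd3 in TKO were 1.41 in serum and 0.44 in 2i. Of the serum groups, only J1-serum, the one with feeders, lacked signal well above background. The part of the feeders in this was not tested. Zic2, a zinc-finger factor, rose by 1.92 in J1 and responded by -0.64 in 3B3l (difference -2.56 ± 0.17).

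Genes of the Nodal pathway, a TGFβ-family signal, were called lower for 4 of 14 and higher for none (median -0.18), which is 28.6% called beside 19.9% of all genes. Lefty2, a secreted inhibitor of Nodal and itself a target of the pathway, rose in J1 and fell in 3B3l. It stood at 2.79, 2.70, 2.90 and 2.78 in J1-serum and 5.01, 4.81 and 4.78 in J1-2i, and at 2.77 and 2.72 in 3B3l-serum and 1.61 and 1.75 in 3B3l-2i. The lines were level in serum (-0.05) and apart in 2i (-3.19), a difference of -3.14 ± 0.15 (adjusted p = 2.9e-08). Lefty1, its paralog, fell in 3B3l by 3.01, from 3.28 and 3.54 to 0.30 and 0.50, and responded by -0.57 in J1, a difference of -2.45 ± 0.18. In TKO both genes also went down. The mean level of Lefty1 was 4.90 in TKO-serum and 2.18 in TKO-2i, and that of Lefty2 was 4.795 and 3.95. Gdf3, a ligand of the family, differed by -1.75 ± 0.16, while Nodal itself differed by -0.00 ± 0.20 and its co-receptor Tdgf1 by -0.13 ± 0.18. The fourth call, Smad3 (-1.01 ± 0.25), was lost in 10 of 24 alternative settings.

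Amino acid stress genes, targets of the factor Atf4, were called lower for 5 of 18 and higher for none (median -0.72), which is 27.8% beside 19.9% of all genes, and 7 rose in J1 and 1 in 3B3l, where 11.5% and 6.27% of all genes rose. Chac1, which degrades glutathione, stood at 1.41 to 1.78 in J1-serum and 4.54 to 4.64 in J1-2i, and at 3.66 and 3.63 in 3B3l-serum and 2.66 and 3.24 in 3B3l-2i. The difference was 13.5-fold (-3.75 ± 0.26, adjusted p = 5.3e-07). Cth, an enzyme of cysteine synthesis, stood at 1.25 to 1.87 in J1-serum and between 3.85 and 4.31 on every other array of the 2 lines (difference -2.19 ± 0.26). The pseudokinase Trib3 differed by -1.91 and the amino acid transporter Slc7a5 by -1.48 (1 of 2 probes). For Chac1 and Cth the J1-serum arrays, the only ones with feeders, stood apart below the 3B3l-serum arrays, and the TKO responses were -0.02 and 0.11. The part of the feeders in this was not tested.

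**Figure D4:**
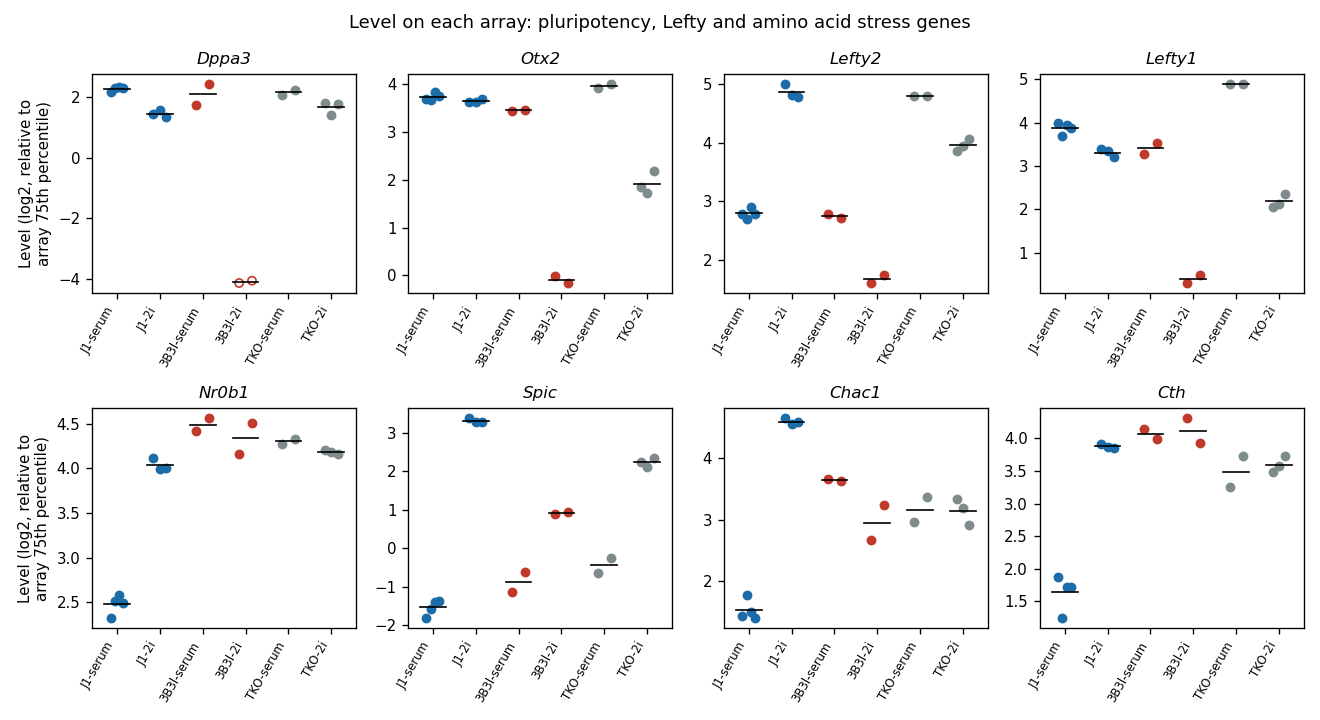
Level on each array (log2, relative to the array's 75th percentile; each panel has its own vertical range) of 8 genes with a lower 3B3l response, by group; points are arrays, open where not well above background, and bars are group means. Dppa3, Otx2, Lefty2 and Lefty1 are lowest in 3B3l-2i, while Nr0b1, Chac1 and Cth are lowest in J1-serum.

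Among other genes with a much lower 3B3l response, Glod5, a glyoxalase-domain gene, stood at 0.66 to 0.88 in J1-serum, 1.79 to 1.91 in J1-2i, 2.10 and 2.20 in 3B3l-serum and -1.06 and -1.05 in 3B3l-2i. Its difference of -4.30 ± 0.15 (adjusted p = 4.3e-09) was the farthest below 0 among genes well above background on all 11 arrays. Dsp, which encodes desmoplakin of the desmosome, differed by -3.64, Phldb2 by -3.54, the neuropilin gene Nrp2 by -3.51, Stc2, a secreted glycoprotein, by -3.25 and the adhesion molecule Ncam1 by -3.25 (2 of 3 probes). Sfmbt2, a Polycomb-associated gene, differed by -3.74 by 1 of its 2 tested probes. Of the differences that could only be bounded, that of Tenm4, a teneurin, was at least 27.8-fold lower by 1 of 2 probes.

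Primitive endoderm genes, which mark the extraembryonic lineage that lines the blastocyst cavity, were called higher for 14 of 16, beside 10.1% of all genes, and lower for none (median 3.41). Most members passed the filter through J1-serum, where they were high, so that the count and the median rest on levels not well above background elsewhere, and 2 were called with signal required on all 11 arrays. In J1, 13 fell, in 3B3l 7 and in TKO 9, where 13.8%, 8.65% and 10.2% of all genes fell. The difference came from serum: J1-serum was the group with high levels, and in 2i most members were below the measurable range in both lines. Of 17 markers fixed for this cell type, 16 were well above background on every J1-serum array, 10 in 3B3l-serum and 5 in each 2i group. Their summed level, in units of the array's 75th percentile, was 158.9 to 191 in J1-serum, 80.0 to 83.2 in 3B3l-serum and 52.4 to 59.2 in the 2i groups of both lines.

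Gata6, a GATA factor that specifies the lineage, stood at 2.22, 2.10, 2.24 and 2.28 in J1-serum and -1.68 and -1.18 in 3B3l-serum and was not well above background in 2i in either line. J1-serum was at least 49.4-fold above J1-2i and 3B3l-serum at least 1.86-fold above 3B3l-2i. Foxa2, a further factor of the lineage, and the receptor Pdgfra were well above background on all J1-serum arrays and on no other array of the 2 lines, with J1-serum at least 4.07-fold and 4.75-fold above 3B3l-serum. Sox17, an endoderm factor, was called by both of its probes, and by one of them J1-serum was at least 7.66-fold above 3B3l-serum. Cubn, which encodes the endocytic receptor cubilin, was at least 66.7-fold higher in J1-serum than in J1-2i.

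Lamb1, a laminin chain of the basement membrane, was measured on all arrays and fell in both lines, by 4.55 in J1 and 2.06 in 3B3l (2.49 ± 0.26, adjusted p = 2e-05). Lamb1 ended at 0.34 to 1.01 in J1-2i and 1.00 and 0.89 in 3B3l-2i, so that the groups overlapped in 2i. With the feeders present only in J1-serum, 16 of 26 fibroblast markers were well above background on every J1-serum array, 8 in J1-2i, 13 in 3B3l-serum and 10 in 3B3l-2i. Their summed level was 93.6 to 111 in J1-serum, 62.1 to 74.2 in J1-2i, 70.3 to 79.9 in 3B3l-serum and 49.0 to 55.9 in 3B3l-2i. It was 40.5 to 43.8 in TKO-serum and 55.5 to 60.8 in TKO-2i, both without feeders. Of the 26 markers, 6 (Col5a2, Col6a2, Fbn1, Lum, Prrx1 and Fap) were well above background on no J1-serum array, and 12 on no 3B3l-serum array. Dcn, at 1.27 to 1.53 in J1-serum, Bgn and Pdgfrb were well above it on all 4 J1-serum arrays and on no 3B3l-serum array. Of 17 fibroblast genes tested, 8 were called higher, beside 10.1% of all genes, and none lower (median 1.41). With signal well above background required on all 11 arrays 1 was called, so this count too rests on levels not well above background on some arrays. The part of the feeders in the J1 response of these and the primitive endoderm genes was not tested.

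Keratins and several trophoblast genes were higher in 3B3l-serum than in J1-serum. In serum 9 of 15 trophoblast genes tested were called higher in 3B3l and 1 lower (Gata2), and of 15 genes of simple epithelia 5 were higher (Dsp, Krt7, Krt8, Krt18 and Krt19) and 1 lower (Ocln), beside 11.5% higher and 11.2% lower of all genes in serum. For the difference of responses, of 15 trophoblast genes, 9 were called lower and 1 higher (median -1.04; 4 and none with signal required on all 11 arrays), and of 15 epithelial genes 8 lower and 1 higher (median -0.94), with 3 keratins in both lists, beside 9.89% of all genes lower. The one higher epithelial call, Ocln, was lost without 3B3l-2i replicate 1 or 3B3l-serum replicate 2. It was also lost under quantile normalization, under normexp background correction and in the authors' table. The filter on all 11 arrays, 1 probe per gene and J1 arrays of slide 1 alone removed it too. Krt18, a keratin of simple epithelium, stood at 3.23, 3.87, 3.91 and 3.87 in J1-serum, 0.86 to 1.01 in J1-2i, 5.51 and 5.72 in 3B3l-serum and 0.66 and 0.43 in 3B3l-2i. It fell in both lines, by 2.78 in J1 and 5.07 in 3B3l, a difference of -2.29 ± 0.27 (adjusted p = 4.7e-05). Its partner Krt8 stood at 2.77 to 2.99 in J1-serum and 5.21 and 5.35 in 3B3l-serum, and the lines did not differ in 2i by a called amount (0.04). Krt7 was at least 9.09-fold higher in 3B3l-serum than in 3B3l-2i.

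The summed level of 16 trophoblast markers was 99.8 to 109.9 in 3B3l-serum against 25.6 to 31.8 in J1-serum, and 15.6 to 17.7 over the 2i groups of both lines. Most of it was Krt8 and Krt18, with 82.5 to 93.6 of it in 3B3l-serum and 16.2 to 22.7 in J1-serum, and the other 14 markers summed to at most 17.3 and 9.38. The defining marker Elf5 was not well above background in any of these 4 groups, and Cdx2 was well above it on both 3B3l-serum arrays and on both 3B3l-2i arrays. Whether these levels belong to a few differentiated cells or to all cells was not tested.

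**Figure D5:**
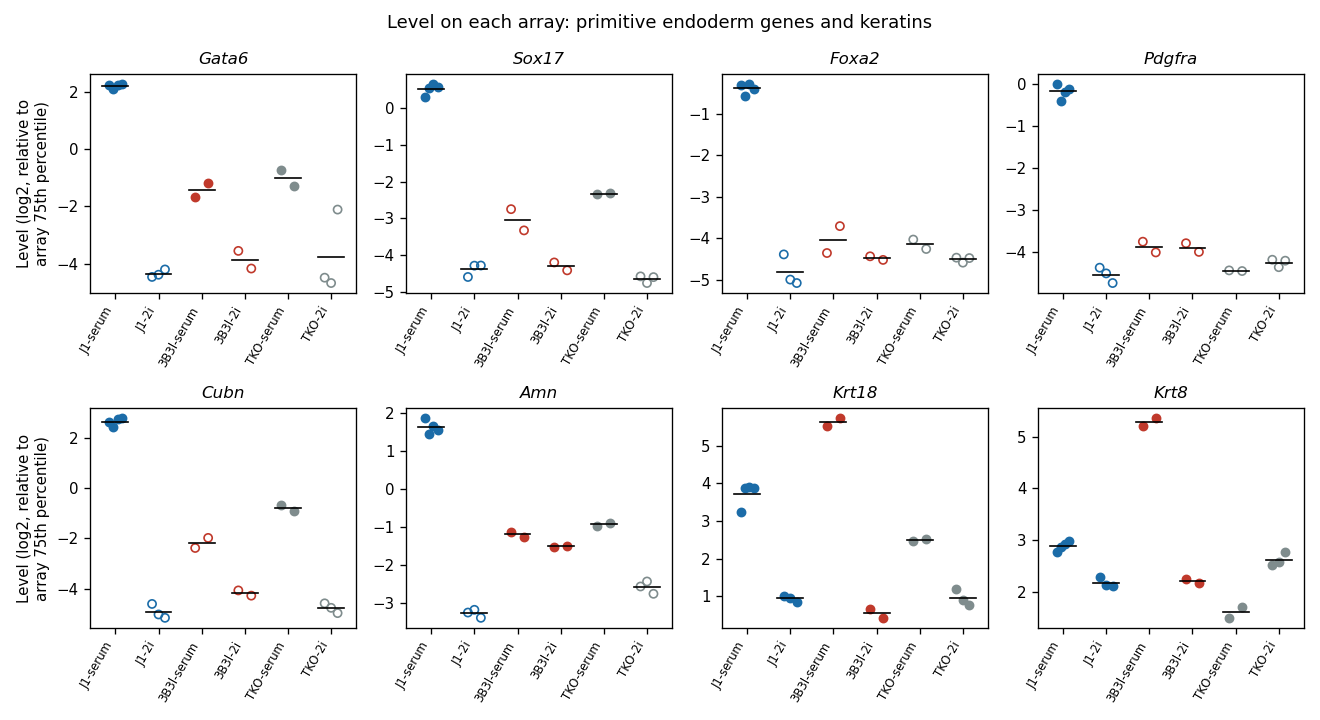
Level on each array (log2, relative to the array's 75th percentile; each panel has its own vertical range) of 6 primitive endoderm genes and 2 keratins by group; points are arrays, open where not well above background, and bars are group means. Gata6 lies at 2.10 to 2.28 in J1-serum and is open in both J1-2i and 3B3l-2i, while Krt18 is highest in 3B3l-serum, at 5.51 and 5.72.

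Of 19 ERK feedback and immediate early genes, 13 fell in J1, 12 in 3B3l and 11 in TKO, where 13.8%, 8.65% and 10.2% of all genes fell, and the difference was called higher for 3 and lower for 2 (median -0.02), which is 26.3% called beside 19.9% of all genes. The lower count was 1 without 3B3l-serum replicate 2, J1-2i replicate 2 or J1-serum replicate 2, 3 or 4, and none with signal required on all 11 arrays. Spry4, a feedback inhibitor of ERK, stayed measurable in 3B3l-2i and not in J1-2i (at least 3.16-fold), and the growth-responsive factor Egr1 the other way (at least 3.02-fold lower in 3B3l). Etv4, an ETS factor downstream of FGF, fell in J1 by 1.27 and stood at 4.14 and 4.21 in 3B3l-serum and 4.91 and 4.50 in 3B3l-2i (difference 1.80 ± 0.20).

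Of 14 Wnt/β-catenin targets, 5 were called higher and none lower (median 0.20), 35.7% beside the same 19.9%, and 2 were called with signal required on all 11 arrays. Axin2, the feedback scaffold most often used to read the pathway, was well above background on every 2i array of both lines and on no serum array, so that its responses have only a lower limit and cannot be compared. Cdx1, a caudal homeobox gene, rose in both lines, from between -1.88 and -1.49 to between 1.19 and 1.36 in J1 and from 0.05 and 0.26 to 4.83 and 5.82 in 3B3l. Its difference was 2.20 ± 0.32 (adjusted p = 0.00028). T (Brachyury), a streak gene, was well above background in 3B3l-2i and in no other J1 or 3B3l group.

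Slide and line were partly tied, since all 3B3l arrays lay on 1 slide with 1 J1-serum array and the other J1 arrays on 2 further slides. With slide as a block, which sets the 3B3l response within its slide against the J1 response within its own slides, 2825 genes were called, 2607 of them shared with the 2760. With the J1 arrays of the first slide alone 2716 were called. With those of the second slide alone, which leaves 1 J1 array in each medium, 1696 were called. Stra8, Zscan4a, Otx2 and Lefty2 ranged over these 3 settings from 5.75 to 5.98, 4.81 to 4.93, -3.50 to -3.41 and -3.17 to -3.12.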

How the data were processed

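Total RNA of 16 samples was amplified, labelled with Cy3 and hybridised to Agilent SurePrint G3 mouse arrays, 1 per sample. The deposited scanner files, read by the authors with Agilent Feature Extraction (11.5.1.1 per the submitters' processing notes), give a background-subtracted intensity for each spot (the processed signal), not scaled between arrays. The authors also deposited a table of quantile-normalized log2 values for 30170 probes. In 13 of its 16 columns the best match among the scanner files was another replicate of the same group, so it served as an alternative only.

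The log2 processed signal was taken after subtracting that array's 75th percentile, computed from its 59305 spots that are not controls, and spots of a probe were averaged, without outlier-flagged spots. A probe was tested when well above background (in at least 50% of its spots) on every array of at least 1 group: 27126 of 55681 probes, of which 95 lacked a value in a group, leaving 27031. Of these, 9228 had no gene name. RefSeq accessions named 28020 probes of 21150 genes. Depth on arrays is signal over background: 39.7% to 49.0% of spots were well above it, the 75th percentile was 1019 to 1797 intensity units, and precision is limited by how few arrays there were.

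The 16 arrays were fitted as 6 group means with limma 3.58.1 in R 4.3.3 (eBayes, Benjamini-Hochberg, two-sided), and checked on simulated data. Bounds set a group not well above background at the lowest signal well above background on each array, or the probe's own where higher. Genes were named by rule: 12 of the study's interest, the 10 largest measured differences in each direction, 3 for each response class, the 5 largest bounds in each direction and up to 4 called members of each list, by the called probe with the largest difference. One gene that the rule names is not reported here. A few further list members are given beside their counts. List medians used 1 probe per gene, and counts of a gene's probes are of those tested. The members and lists were chosen with earlier results of these data known, so list counts are a description. Promoters came from RefSeq (GRCm38.p6).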

Additional observations from a re-analysis of the deposited data

Results flagged for a closer look

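The 2i response differed between 3B3l and J1 for 2760 genes by the test of the difference itself, as described above. In 8 of the genes reported here 1 of the 4 J1-serum arrays stood apart from the other 3, with a gap that took up more of the group's range than Dixon's 95% limit for 4 samples allows. Chance alone marks about 1 in 20 groups. In 6 of the 8 it was replicate 1, the one J1-serum array that shared a slide with the 3B3l arrays. For these 6 the share of the range taken by the gap was 0.902 for Dazl (-0.06 against 0.55 to 0.62), 0.930 for Krt18 (3.23 against 3.87 to 3.91), 0.856 for Tmem181a, 0.856 for Ildr1, 0.848 for Sox3 and 0.863 for Egln1. In Zscan4b the array apart was replicate 3 (0.944; 3.59 against 3.33 to 3.34), and in Gm21319 replicate 2 (0.877; 1.81 against 1.99 to 2.02). Without 1 array at a time the differences of Krt18, Zscan4b and Gm21319 ranged from -2.41 to -2.13, 4.66 to 4.93 and 4.24 to 4.42. The part of the slide in these values was not tested.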

How the results depend on the processing

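Over 24 alternatives none of the named genes changed sign of a called difference: of 3202 gene values, 3127 kept their side of the threshold, 71 lost the call and 4 gained it, and 1048 of 1152 list counts stayed within 1.5 times. Asking for signal well above background on all 11 arrays left 1416 genes, 596 higher and 823 lower (42.0% higher, beside 50.5%), of 10236 tested, with 261 that fell in J1 alone, 27 that fell in J1 and rose in 3B3l, 359 that rose in J1 alone and 16 that rose in J1 and fell in 3B3l. Without the fold limit there were 4942, 2319 and 2675, with classes of 1107, 296, 1378 and 339. With only the slide 2 arrays of J1, 1 per medium, so that the lone arrays are assumed to vary like the others, there were 1696, 849 and 854, with 430 that fell and 382 that rose in J1 alone. Under normexp background correction 18 genes rose in J1 and fell in 3B3l. The cause of these shifts was not tested. Leaving out 1 array at a time gave 2637 to 2777 genes, 1287 to 1413 higher and 1293 to 1417 lower, and classes of 621 to 733, 67 to 75, 564 to 614 and 34 to 44. The primitive endoderm list had 2 genes called higher under the filter on all 11 arrays, beside 14, and the two-cell-like list 5 in the authors' table, beside 10. Of Nodal pathway genes 2 were called higher without 3B3l-serum replicate 2, beside none.

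Same-numbered samples did not deviate together throughout: over 13 pairs the correlation was -0.129 to 0.293, above 0.1 in 5. Over 31 other pairs it was -0.293 to 0.169. The highest value, 0.293, was that of the same-numbered arrays of 3B3l-serum and 3B3l-2i. In groups of 2 arrays the deviations mirror each other, so the values of the 3B3l pairs are not separate. Replicate numbers were not taken to pair the samples. With the replicate number as a block 2684 genes were called, 1347 higher and 1347 lower, 2591 of them shared.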

Other observations

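Further lists are given beside 19.9% of all genes called, 10.1% higher and 9.89% lower. Of 23 hypoxia and glycolysis genes 8 were called higher and 1 lower (median -0.02). Ndufa4l2, a hypoxia-induced mitochondrial gene, fell by 1.46 in J1 and rose by 1.58 in 3B3l. It stood at 2.96 to 3.96 in J1-serum and 1.84 to 1.99 in J1-2i, but at -1.83 and -1.46 in 3B3l-serum and -0.15 and 0.01 in 3B3l-2i, a difference of 3.04 ± 0.31 (adjusted p = 1.5e-05). Of 20 sterol and fatty acid synthesis genes 4 were called higher and none lower (median 0.71), a share near that of all genes. Insig1, which restrains sterol synthesis, rose by 1.65 in 3B3l, from 0.74 and 0.39 to 2.29 and 2.13, and responded by -0.21 in J1. Of 16 G1 cyclins and CDK inhibitors 5 were called higher (3 without 3B3l-2i replicate 2, and 1 with signal required on all 11 arrays), among them the cyclin gene Ccnd2, which was at least 53.7-fold higher in J1-serum than in J1-2i and fell by 3.33 in 3B3l, with 1 of 2 3B3l-2i arrays well above background. Of 15 interferon response genes 3 were called higher and 1 lower (median 0.27), or 26.7%. Ifi27, an interferon-induced mitochondrial gene, stood at 0.32 to 0.87 in J1-serum, 0.25 to 0.43 in J1-2i and -0.11 and -0.37 in 3B3l-2i, and was not well above background in 3B3l-serum, a difference of at least 5.10-fold.

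Imprinted genes were called lower for 7 of 21 and higher for 1 (median -0.66), but for 4 without 3B3l-serum replicate 1. Snrpn, a small nuclear ribonucleoprotein gene, was called by 2 of 3 probes. By its brightest probe it stood at mean levels of 3.31 in J1-serum, 2.91 in J1-2i, 5.59 in 3B3l-serum and 4.05 in 3B3l-2i, a difference of -1.13 ± 0.16. Peg10 was called by its dimmer probe, which was well above background in 3B3l-serum alone of these groups, while its brighter one gave -0.54 ± 0.72 and was not called. Of 14 Xlr and Rhox genes 4 were called lower and 1 higher (median -0.84; 1 and none with signal required on all 11 arrays). Xlr4b, of an X-linked family, rose by 1.49 in J1 and responded by -0.84 in 3B3l (difference -2.33 ± 0.17). Of the remaining lists, neural genes were called lower for 7 of 14 and higher for 1 (median -0.86), with the intermediate filament gene Nes at -2.85 ± 0.37. Betaine and methionine cycle genes were called lower for 4 of 17 (23.5%) and higher for none (median -0.63), and primitive streak and mesendoderm genes higher for 7 of 11 and lower for 2 (median 1.27; none in either direction with signal required on all 11 arrays), a list that shares Gata4, Gata6, Foxa2 and Sox17 with primitive endoderm. Contractile genes (3 higher and 1 lower of 15, 26.7%, median -0.12) and Id genes with BMP targets (2 and 2 of 13, median -0.16) went both ways.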
